A study of Mus musculus with 8 samples.

Results

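Collagen genes and the enzymes that process their products were examined in C2C12 myotubes, a mouse muscle cell line that fuses into multinucleated fibres when serum is lowered. The members are the genes named in the array annotation as a collagen alpha chain, together with 13 listed modifying enzymes and helpers, and each had to be read by a probe set with exactly 1 annotated symbol. This gave 77 of 22690 probe sets and 47 genes, of which 36 were collagens and 11 were enzymes or helpers. P4ha3 and Loxl2 of the listed enzymes had no such probe set in the annotation used here and were not analysed here.

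All cultures were differentiated in medium with 2% horse serum. The labels also list 10% fetal bovine serum for every array of both groups. The control myotubes (arrays A to D) went on being fed every 48 h after day 4, whereas the starved myotubes (arrays E to H) stayed in the same medium for 4 days, and RNA of both was taken on day 8. Both groups are the same cell line, so the results hold for this 1 line, and as far as the labels state the groups differ in feeding alone. The labels do not say whether the 4 arrays of a group came from separate cultures, so p-values measure the spread between these arrays, which may be technical.

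Collagens are secreted as trimers of alpha chains. Fibrillar collagens (types I, II, III, V and XI among those on the array) form the fibres of connective tissue, with type V found inside type I fibres. Type IV collagen forms the network of basement membranes, such as the sheath around each muscle fibre, and types XV and XVIII lie beside it. In the endoplasmic reticulum prolyl 4-hydroxylases stabilise the helix, lysyl hydroxylases prepare cross-links and Serpinh1 (Hsp47) acts as chaperone. Outside the cell Bmp1, aided by Pcolce, trims propeptides, and lysyl oxidases begin the cross-links.

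Of the 47 genes, 35 were bright enough to be tested through their brightest probe set: 7 fibrillar collagens, 7 of the basement membrane group, 10 other collagens and 11 enzymes or helpers. In starved myotubes 14 of the 35 were lower and 0 were higher (limma, adjusted p under 0.05), where 6.94% of all 8352 tested genes were lower and 4.25% were higher. The 14 were Col1a1, the type V chains Col5a1, Col5a2 and Col5a3, the type IV chains Col4a1 and Col4a2, Col18a1, Col8a1, Lox, Loxl1, Loxl3, P4ha2, Pcolce and Bmp1. In each of these 14 genes every starved array lay below every control array. With Col6a1, which was not called, the groups did not overlap for 15 members, all lower in starved arrays, against 10.2% of all genes tested. A fall of at least 2-fold was found for 7 of the 35, against 1.39% of all genes. Col5a1 and Col5a2, 2 of these 7, fell by less than 2-fold once each gene's probe sets were averaged (-0.84 and -0.63). The median log2 fold change of the 35 was -0.22, against 0.01 over all tested genes.

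Signals below are log2 values after quantile normalization, fold changes are starved minus control on the log2 scale ± the standard error of the linear model, and n = 4 arrays per group throughout. Adjusted p-values are limma's, with Benjamini-Hochberg adjustment over 13575 probe sets. A collagen that was lower may reflect fewer cells that make it or less mRNA per cell, and bulk RNA cannot tell these apart. The arrays were not of one brightness as deposited, with trimmed means from 317 to 455 intensity units in controls and from 243 to 366 in starved arrays. Without scaling, the median of all tested probe sets stood at -0.33, and the members were then 16 lower and 0 higher, where 12.3% of all genes were lower and 0.539% higher. Unscaled means here that no scaling was added to the deposited values, and whether they had been scaled before deposit is unknown. The 10 myotube markers that were checked had a mean log2 signal of 12.50 in controls and 12.46 in starved arrays. Among them Actn2 was called higher (0.58 ± 0.10) and Des was called lower (-0.22 ± 0.05). Myogenin (Myog) was positive but not called (0.29 ± 0.14). Apart from Actn2 and Myog all markers of this list were negative, from -0.33 (Cav3) to -0.01 (skeletal actin, Acta1). Control B stood apart in the ratio of 3' to 5' signal of its Gapdh control probe sets (1.40 on the log2 scale, against -0.23 to -0.04 in the other 7 arrays). Without it 14 members were lower and 0 higher, but they were not the same 14 genes. Loxl3 lost its call (adjusted p = 0.0648) and Col1a2 gained one (adjusted p = 0.0259).

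**Figure D1:**
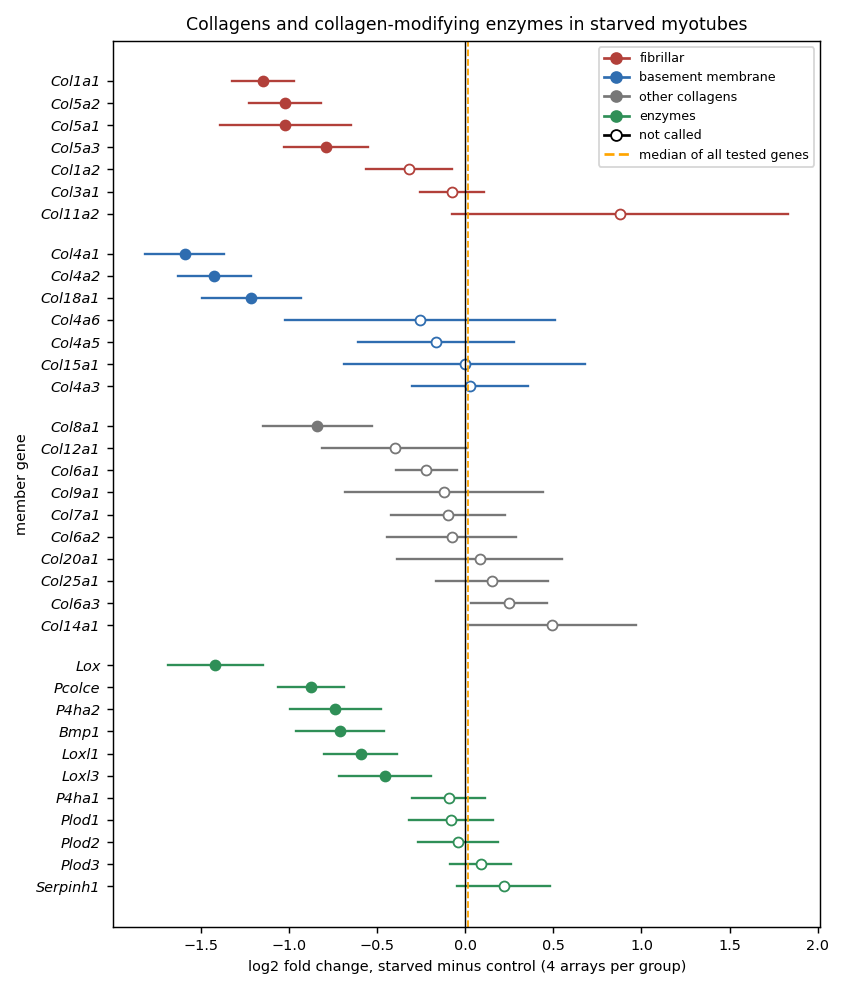
Log2 fold change (starved minus control, x axis) of the 35 tested member genes (y axis) with 95% confidence intervals of the linear model, grouped by class, filled where the adjusted p was under 0.05. All 14 filled points lie left of 0, from -0.46 (Loxl3) to -1.59 (Col4a1), and the intervals of Col3a1, Col6a2, Plod1 to Plod3 and P4ha1 hold 0.

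The promoter stretches that follow are shown because they set fibrillar genes with unlike responses side by side: Col5a1 and Col5a3 were lower, Col3a1 did not pass, and Col1a2 did not pass with its brightest probe set. Each is the 250 bases before the annotated start in the RefSeq table of GRCm38.p6, read 5′ to 3′ on the gene's own strand, with 3 motifs in capitals wherever they lie on either strand: the CCAAT box, the Sp1-type box GGGCGG and the TATA box TATAAA. The stretches are chr6:4505368-4505617 (plus strand) for Col1a2, chr1:45311288-45311537 (plus) for Col3a1, chr2:27886175-27886424 (plus) for Col5a1 and chr9:20815068-20815317 (minus) for Col5a3.
Col1a2: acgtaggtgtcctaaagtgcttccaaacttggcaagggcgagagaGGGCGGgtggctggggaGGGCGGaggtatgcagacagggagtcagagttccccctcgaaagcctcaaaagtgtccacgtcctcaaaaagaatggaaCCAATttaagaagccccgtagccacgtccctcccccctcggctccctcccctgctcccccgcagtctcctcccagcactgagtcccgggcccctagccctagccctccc
Col3a1: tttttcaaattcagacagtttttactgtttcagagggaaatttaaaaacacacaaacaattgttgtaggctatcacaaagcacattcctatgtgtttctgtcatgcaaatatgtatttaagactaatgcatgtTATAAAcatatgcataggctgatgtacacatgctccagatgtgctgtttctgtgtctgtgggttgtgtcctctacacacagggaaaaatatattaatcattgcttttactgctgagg
Col5a1: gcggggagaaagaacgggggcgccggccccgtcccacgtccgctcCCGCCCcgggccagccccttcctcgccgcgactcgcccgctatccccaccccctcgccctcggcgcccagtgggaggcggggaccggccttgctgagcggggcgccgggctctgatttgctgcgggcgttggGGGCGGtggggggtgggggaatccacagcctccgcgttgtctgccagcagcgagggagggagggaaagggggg
Col5a3: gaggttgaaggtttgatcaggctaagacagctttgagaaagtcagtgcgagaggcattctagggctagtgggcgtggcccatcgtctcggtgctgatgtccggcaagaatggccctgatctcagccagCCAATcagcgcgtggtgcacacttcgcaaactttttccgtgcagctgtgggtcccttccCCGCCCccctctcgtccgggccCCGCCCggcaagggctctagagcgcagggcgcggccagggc

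Col1a2 held 1 CCAAT and 2 GGGCGG matches, Col5a3 1 and 2, Col5a1 2 GGGCGG matches only, and Col3a1 a single TATAAA. Across all 32851 RefSeq windows, CCAAT was held by 33.8%, GGGCGG by 32.7% and TATAAA by 12.4%. Of the 9 windows of called members 4 held CCAAT, 7 GGGCGG and 0 TATAAA, and of the 19 windows of members that were not called 6, 11 and 3 did. Windows were found for 25 of the 35 genes. The start used in these cells was not measured, and a match is only a run of letters. No matches overlapped in the 4 stretches shown.

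Col4a1 and Col4a2, the chains that changed most, are adjacent genes on chromosome 8 on opposite strands, and their starts in the RefSeq promoter table lie 21 bases apart. Col4a1 is read on the minus strand from the higher position and Col4a2 on the plus strand from the lower one, so each is read across the start of the other. The stretch from one start to the other, which lies inside both annotated transcripts, chr8:11312805-11312826 on the plus strand of GRCm38.p6, is shown because both genes share it, with GGGCGG in capitals.
Col4a1 and Col4a2: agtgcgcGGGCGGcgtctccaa

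Among fibrillar collagens 4 of 7 tested genes were lower (57.1%, against 6.94% of all tested genes) and 0 higher, with a median of -0.79. Col1a1, the main chain of type I collagen, had signals, in the order of the array letters, of 10.55, 10.55, 10.67 and 10.46 for controls and of 9.41, 9.37, 9.45 and 9.39 for starved arrays. It fell by 1.15 ± 0.08, or 2.22-fold (adjusted p = 4.90e-06), and the arrays within each group lay close together. Its other probe set fell by 1.27 ± 0.21 (adjusted p = 0.00245).

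Col1a2, the partner chain in the same trimer, had signals of 12.03, 11.59, 11.94 and 11.84 in controls and 11.58, 11.68, 11.27 and 11.60 in starved arrays. The groups overlapped through control B and starved F and H, and the change of -0.32 ± 0.11 did not pass (adjusted p = 0.102). Its other probe set fell by 0.56 ± 0.10 (adjusted p = 0.00382). The gene also passed with the mean of both probe sets (-0.44, adjusted p = 0.0111), with array weights (-0.35, adjusted p = 0.0397), without control B (-0.40, adjusted p = 0.0259) and in unscaled values (-0.67, adjusted p = 0.0127).

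Col3a1, the chain of type III collagen, had signals of 12.12, 12.06, 12.11 and 12.03 in controls and 12.02, 11.81, 11.96 and 12.23 in starved arrays. The groups overlapped and the change was -0.08 ± 0.08 (adjusted p = 0.643), with a 95% interval from -0.26 to 0.11. The dimmer Col3a1 probe set was likewise not called (-0.12 ± 0.15, adjusted p = 0.700).

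All 3 type V chains, which join type I collagen in its fibres, were lower. Col5a1 had signals of 10.91, 10.70, 10.84 and 10.82 in controls and 10.21, 9.78, 9.25 and 9.95 in starved arrays, a fall by 1.02 ± 0.17, or 2.03-fold (adjusted p = 0.00257). Starved G was the lowest and starved E the highest of its group, so the size of this change was less certain than that of Col1a1. The other 2 probe sets of Col5a1 fell by 0.65 ± 0.10 (adjusted p = 0.00162) and fell by 0.84 ± 0.14 (adjusted p = 0.00276).

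Col5a2 had signals of 11.17, 11.49, 11.43 and 11.33 in controls and 10.29, 10.34, 10.19 and 10.50 in starved arrays and fell by 1.02 ± 0.09 (adjusted p = 3.84e-05). A dimmer Col5a2 probe set gave -0.25 ± 0.21 (adjusted p = 0.540), and averaging both before the fit gave a fall by 0.63 (adjusted p = 0.0123). Col5a3 had 9.25, 9.22, 9.03 and 9.05 in controls and 8.54, 8.33, 8.27 and 8.25 in starved arrays. This gene fell by 0.79 ± 0.11 or 1.73-fold (adjusted p = 0.000771), with a gap between the groups.

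The last tested fibrillar gene was Col11a2, a cartilage chain. Its controls spread from 5.11 in control A to 7.24 in control B, and its starved arrays from 6.80 to 7.44, so the change of 0.88 ± 0.43 did not pass (adjusted p = 0.250). Col2a1 and Col11a1, also cartilage chains, were below the brightness needed for a test.

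**Figure D2:**
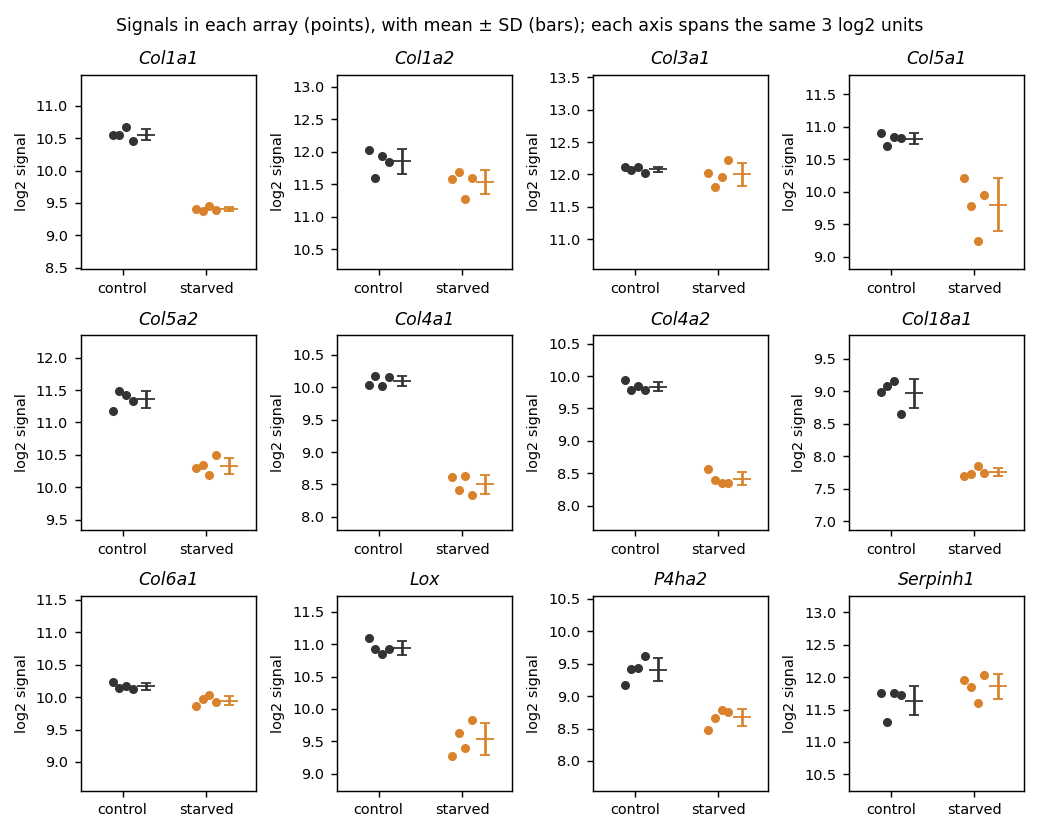
Log2 signal (y axis, 3 log2 units in every panel) of 12 member genes in the control and starved arrays (points), with mean ± SD of 4 arrays as bars. Starved arrays lie below all controls for Col1a1, Col5a1, Col5a2, Col4a1, Col4a2, Col18a1, Col6a1, Lox and P4ha2, while the groups overlap for Col1a2, Col3a1 and Serpinh1.

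In the basement membrane group 3 of 7 tested genes were lower (42.9%, against 6.94% of all tested genes) and 0 higher, with a median of -0.26. Col4a1, a chain of the common type IV network, had the largest change of all members. Its signals were 10.03, 10.17, 10.02 and 10.16 in controls and 8.62, 8.42, 8.63 and 8.34 in starved arrays, and it fell by 1.59 ± 0.10, or 3.02-fold (adjusted p = 2.42e-06). The second probe set of Col4a1 fell by 1.42 ± 0.35 (adjusted p = 0.0249).

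Col4a2, which joins Col4a1 in the same trimer, had signals of 9.94, 9.79, 9.84 and 9.79 in controls and 8.56, 8.40, 8.35 and 8.35 in starved arrays. It fell by 1.42 ± 0.09, or 2.68-fold (adjusted p = 3.38e-06), and the groups were far apart. Col18a1, whose C-terminal fragment is endostatin, had 9.0, 9.09, 9.15 and 8.65 in controls and 7.70, 7.73, 7.85 and 7.74 in starved arrays and fell by 1.21 ± 0.13 (adjusted p = 0.000108). A dimmer probe set of Col18a1 stood at -1.11 ± 0.56 and did not pass (adjusted p = 0.258).

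The other type IV chains, known from the basement membranes of specialised tissues such as kidney, did not pass. Col4a3 had signals of 7.47, 7.53, 7.13 and 7.10 in controls and 7.27, 7.30, 7.39 and 7.35 in starved arrays (0.02 ± 0.15, adjusted p = 0.943). Col4a5 had 6.95, 7.09, 6.53 and 6.64 in controls and 6.87, 6.80, 6.39 and 6.49 in starved arrays (-0.17 ± 0.20, adjusted p = 0.680). Their groups overlapped, at signals near the brightness limit of 6.61. Col4a6 had 7.55, 7.16, 6.89 and 6.93 in controls and 6.75, 5.80, 7.64 and 7.31 in starved arrays (-0.26 ± 0.35, adjusted p = 0.714), a spread too wide to show a change of this size. Col15a1 stood at -0.002 ± 0.31 (adjusted p = 0.997), with starved arrays from 5.85 to 7.44. Col4a4 was too dim to be tested.

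Of the 10 other tested collagens 1 was lower and 0 were higher, with a median of -0.09. This share of 10% was near the 6.94% of all tested genes that were lower. The lower gene was Col8a1, a short network-forming chain known from vessel walls. It had signals of 9.36, 9.28, 9.61 and 9.67 in controls and 8.95, 8.49, 8.42 and 8.70 in starved arrays and fell by 0.84 ± 0.14, or 1.79-fold (adjusted p = 0.00275).

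None of the 3 chains of type VI collagen, the beaded filament next to the muscle basement membrane, passed. Col6a1 had signals of 10.24, 10.14, 10.16 and 10.12 in controls and 9.86, 9.98, 10.03 and 9.92 in starved arrays. The starved arrays all lay below the controls, by a small amount (-0.22 ± 0.08, adjusted p = 0.108), and Col6a1 passed only once scaling was omitted (-0.61, adjusted p = 0.0489). Col6a2 had 10.22, 9.67, 9.67 and 9.49 in controls and 9.99, 9.47, 9.76 and 9.52 in starved arrays (-0.08 ± 0.17, adjusted p = 0.830). Col6a3 had 9.28, 9.55, 9.30 and 9.44 in controls and 9.76, 9.67, 9.62 and 9.53 in starved arrays, with the opposite sign (0.25 ± 0.10, adjusted p = 0.149). That positive sign turned to -0.14 in unscaled values (adjusted p = 0.631).

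The remaining tested collagens ranged from -0.40 to 0.49. Among those that sit on fibre surfaces, Col12a1 stood at -0.40 ± 0.19 (adjusted p = 0.226), Col14a1 at 0.49 ± 0.22 (adjusted p = 0.194), Col9a1 at -0.12 ± 0.25 (adjusted p = 0.826) and Col20a1 at 0.08 ± 0.21 (adjusted p = 0.861). Col7a1, the anchoring fibril of skin, stood at -0.10 ± 0.15 (adjusted p = 0.751), and the transmembrane collagen gene Col25a1 at 0.15 ± 0.14 (adjusted p = 0.582). Col9a2, Col9a3, Col10a1, Col13a1, Col16a1, Col17a1, Col19a1, Col22a1 and Col26a1 were too dim to be tested. In all 27 of the 77 probe sets fell below the limit, with mean log2 signals from 3.54 to 6.54.

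**Figure D3:**
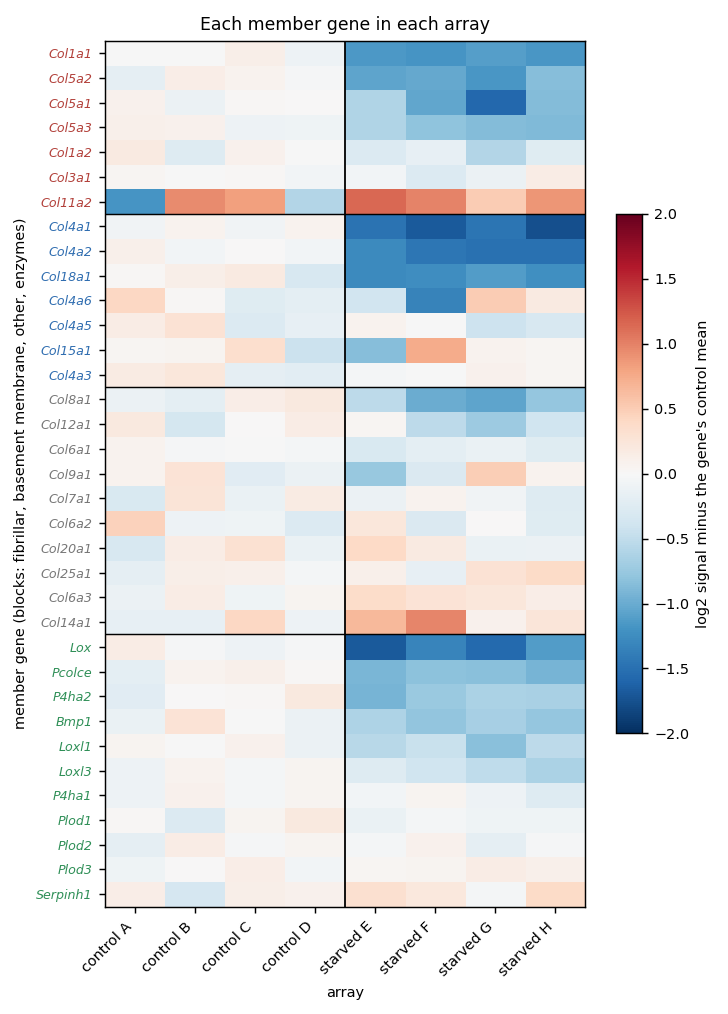
Log2 signal of each tested member gene (rows, in 4 blocks) in each of the 8 arrays (columns), minus that gene's mean over the 4 control arrays; blue is lower and red is higher. The called genes are blue in all 4 starved arrays, and Col11a2, Col4a6, Col15a1 and Col14a1 vary among arrays of one group.

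Among the enzymes and helpers 6 of 11 were lower (54.5%, against 6.94% of all tested genes) and 0 higher, with a median of -0.46. Lysyl oxidases oxidise lysines to start cross-links, and the 3 tested members Lox, Loxl1 and Loxl3 were lower, whereas their relative Loxl4, which is not a member, stood at 0.12 ± 0.13 (adjusted p = 0.636). Lox had signals of 11.10, 10.92, 10.84 and 10.93 in controls and 9.27, 9.62, 9.39 and 9.83 in starved arrays and fell by 1.42 ± 0.12, or 2.67-fold (adjusted p = 2.50e-05). A second probe set of Lox fell by 1.16 ± 0.23 (adjusted p = 0.00792).

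Loxl1, best known from elastic fibres, had signals of 11.20, 11.14, 11.23 and 11.04 in controls and 10.60, 10.70, 10.31 and 10.63 in starved arrays and fell by 0.59 ± 0.09 (adjusted p = 0.00200). Loxl3 had 8.26, 8.43, 8.32 and 8.41 in controls and 8.09, 7.95, 7.84 and 7.71 in starved arrays and fell by 0.46 ± 0.12 (adjusted p = 0.0311). The groups were close together for Loxl3, and its call was lost when any 1 of the 4 controls or of starved F, G and H was left out, and without the brightness filter (highest adjusted p = 0.0887).

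Both extracellular trimming genes were lower. Pcolce, which enhances removal of the C-propeptide, had signals of 10.68, 10.94, 10.97 and 10.89 in controls and 9.96, 10.04, 10.03 and 9.94 in starved arrays. It fell by 0.87 ± 0.08, or 1.83-fold (adjusted p = 6.50e-05), and its other probe set fell by 1.0 ± 0.10 (adjusted p = 5.91e-05). Bmp1, the protease that removes the propeptide, had 9.34, 9.75, 9.47 and 9.36 in controls and 8.86, 8.68, 8.82 and 8.71 in starved arrays and fell by 0.71 ± 0.11 (adjusted p = 0.00199).

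Of the enzymes and the chaperone of the endoplasmic reticulum 1 of 6 passed, and it was lower, as were 6.94% of all tested genes. With 6 genes a single call cannot be told apart from that share. P4ha2, a catalytic subunit of prolyl 4-hydroxylase, had signals of 9.18, 9.41, 9.43 and 9.61 in controls and 8.48, 8.66, 8.78 and 8.76 in starved arrays and fell by 0.74 ± 0.12, or 1.67-fold (adjusted p = 0.00212). P4ha1, the alternative subunit, stood at -0.09 ± 0.09 (adjusted p = 0.608), with a 95% interval from -0.30 to 0.11. The lysyl hydroxylases Plod1 (-0.08 ± 0.11, adjusted p = 0.711), Plod2 (-0.04 ± 0.10, adjusted p = 0.853) and Plod3 (0.09 ± 0.08, adjusted p = 0.563) did not pass. Their 95% intervals ran from -0.32 to 0.26 over the 3 genes.

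Serpinh1, the collagen chaperone, had signals of 11.76, 11.31, 11.76 and 11.72 in controls and 11.96, 11.84, 11.60 and 12.03 in starved arrays. The groups overlapped through starved G, and the change of 0.22 ± 0.12 did not pass (adjusted p = 0.302). A second Serpinh1 probe set gave 0.30 ± 0.09 (adjusted p = 0.0665). Averaging them before the fit gave a higher call (0.26, adjusted p = 0.0465). In unscaled values Serpinh1 stood at -0.13 (adjusted p = 0.615).

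Chains of one collagen type, members of one enzyme family, and Col1a1 and Col5a2 against Col3a1 were then compared within arrays. The question was whether the genes of a pair changed by different amounts. The 13 pairs were chosen after the single-gene values were known. That choice favours separated groups, so the p-values of the pairs are not independent support for unequal change. How often other pairs of genes separate in this way was not examined. For each array the log2 signal of the second gene was subtracted from that of the first. The groups were compared with a two-sided exact permutation test over 70 labellings, whose smallest p is 0.0286. For pairs, ± is the standard error of the difference between group means, from the variance within each group and not from the linear model. With 7 of the 13 pairs at that smallest p, the adjusted p was 0.0531, so 0 pairs passed 0.05 after adjustment.

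In type I collagen the fold change of Col1a1 minus that of Col1a2 was -0.83 ± 0.14 (exact permutation p = 0.0286, adjusted p = 0.0531, n = 4). Relative to the control mean, the starved arrays stood at -0.87, -1.02, -0.52 and -0.92 and the controls ran from -0.19 to 0.25, so the groups did not overlap. Against Col3a1, the difference of Col1a1 was -1.07 ± 0.09 and that of Col5a2 was -0.95 ± 0.10, again with no overlap. All pairs were read through the brightest probe sets only. The dimmer Col5a2 probe set changed by -0.25 ± 0.21, nearer to the Col3a1 change of -0.08. The other Col1a2 probe set fell by 0.56 ± 0.10, nearer to Col1a1, whose own other probe set fell by 1.27 ± 0.21. Col3a1 and Col5a2 are adjacent genes on chromosome 1.

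The other non-overlapping pairs were P4ha2 minus P4ha1 (-0.64 ± 0.13), Lox minus Loxl1 (-0.82 ± 0.13), Lox minus Loxl3 (-0.96 ± 0.21) and Col6a1 minus Col6a3 (-0.47 ± 0.11). Chains of type IV collagen did not differ beyond their spread: Col4a1 minus Col4a2 was -0.17 ± 0.10 (exact permutation p = 0.171, adjusted p = 0.248, n = 4). The differences among the 3 type V chains ran from -0.23 to 0.003, and their lowest exact permutation p was 0.143 (n = 4). The remaining type VI pairs stood at -0.14 ± 0.19 (Col6a1 minus Col6a2) and -0.32 ± 0.22 (Col6a2 minus Col6a3).

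**Figure D4:**
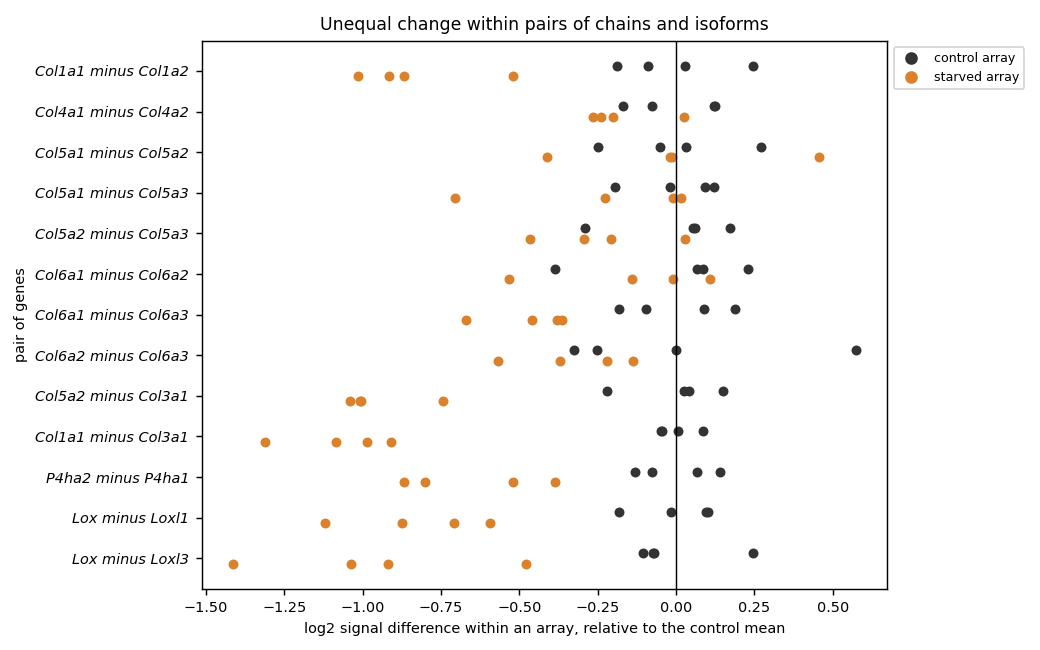
Within-array difference in log2 signal for 13 pairs of genes (y axis), relative to the mean of the 4 control arrays (x axis), with each control and starved array as a point. The starved points lie left of every control point for 7 pairs, among them Col1a1 minus Col1a2 and P4ha2 minus P4ha1, and mix with them for the type IV and type V pairs.

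Other genes of collagen handling, outside the members, were read from 3 lists that hold 37 genes, of which 23 were tested. In folding and secretion 3 of 15 tested genes were lower, 1 was higher and 11 did not pass, with a median of -0.08. Over all tested genes 6.94% were lower and 4.25% higher. Creb3l1, a transcription factor of the secretory pathway, fell by 0.52 ± 0.11 (adjusted p = 0.0111). P3h4 fell by 0.44 ± 0.08 (adjusted p = 0.00355) and Crtap, a partner of prolyl 3-hydroxylase, fell by 0.44 ± 0.10 (adjusted p = 0.0194; 0.0588 without starved F).

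Kdelr2, which returns chaperones to the endoplasmic reticulum, rose by 0.34 ± 0.08 (adjusted p = 0.0153), but stood at -0.04 in unscaled values and was not called there (adjusted p = 0.884). The Kdelr2 call was also lost with median centring (adjusted p = 0.154), with 75th percentile centring (adjusted p = 0.0707), without an intensity trend (adjusted p = 0.0552) and without control C (adjusted p = 0.0502). P4hb, the partner subunit of prolyl 4-hydroxylase, stood at 0.11 ± 0.06 (adjusted p = 0.292) and the cyclophilin gene Ppib at 0.13 ± 0.08 (adjusted p = 0.357). In trimming and cross-linking 2 of 3 tested genes were lower and Loxl4 was not called: Pcolce2, a relative of Pcolce, fell by 0.99 ± 0.17 (adjusted p = 0.00316) and the transglutaminase gene Tgm2 fell by 0.62 ± 0.10 (adjusted p = 0.00227), which did not pass once all Tgm2 probe sets were averaged (-0.33, adjusted p = 0.243). Among receptors and uptake genes 0 of 5 were called in either direction, with values from -0.15 (Mrc2) to 0.69 ± 0.27 (Ddr2, adjusted p = 0.142).

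**Figure D5:**
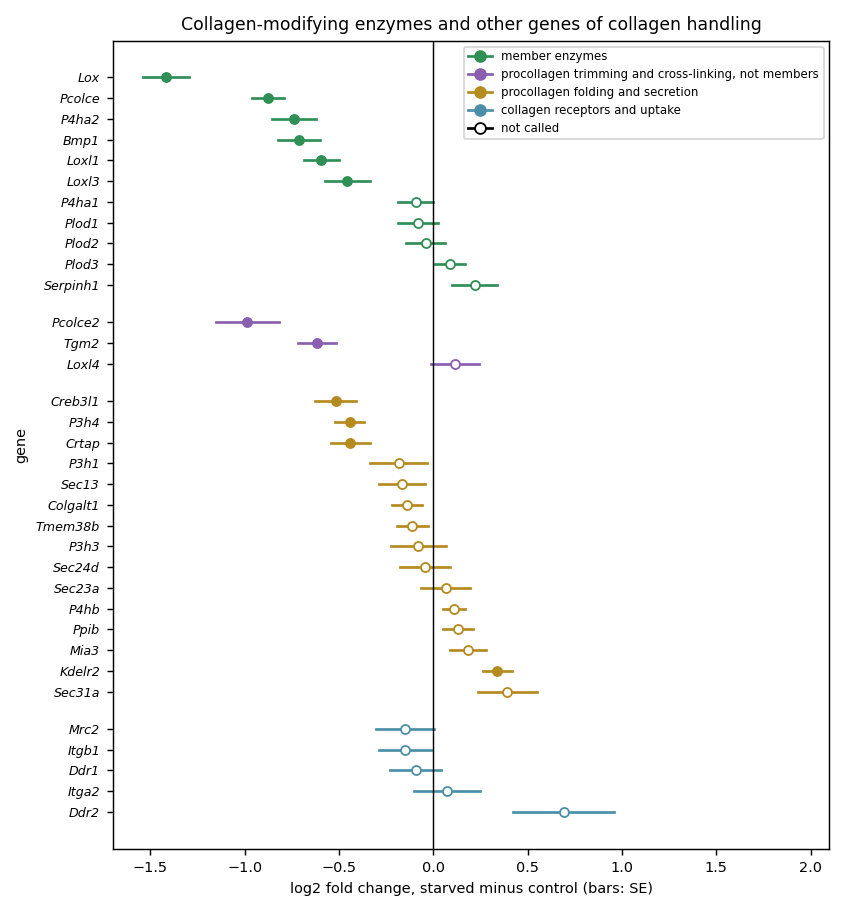
Log2 fold change (starved minus control, x axis; bars are standard errors) of the 11 tested member enzymes and of 23 tested genes of collagen handling outside the members, by list; filled points had an adjusted p under 0.05. Lox lies farthest left at -1.42, followed by Pcolce2 and Pcolce, and Kdelr2 is the single filled point right of 0.

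Markers of other cells that could make or lack collagen were read beside these values. Fibroblast markers (5 of 9 tested) had mean log2 signals from 8.49 to 8.69 in controls and from 8.83 to 8.93 in starved arrays, a difference of 0.27 (exact permutation p = 0.0286, adjusted p = 0.171 over 6 lists, n = 4) that was -0.05 in unscaled values. Dcn rose by 0.94 ± 0.14 and S100a4 fell by 0.68 ± 0.08 among them, and Dpt, Fap, Pi16 and Tcf21 were too dim to be tested. S100a4 was the only tested fibroblast marker with a negative value. Pdgfra (0.56 ± 0.18), Lum (0.34 ± 0.18) and Thy1 (0.20 ± 0.18) were positive but not called. Myoblast or cycling-cell markers (6 of 8 tested) ran from 8.23 to 8.39 in controls and from 7.75 to 8.28 in starved arrays (-0.17, exact permutation p = 0.171, n = 4). Among these, Cdk1 was called lower (log2 fold change -0.82 ± 0.13) and Id3 was called higher (1.09 ± 0.13). Id3 was the only tested marker of this list with a positive value. Not called were Top2a (-0.98 ± 0.38), Cdh15 (-0.19 ± 0.07), Pax7 (-0.10 ± 0.19) and Mki67 (-0.04 ± 0.19). Chondrocyte or osteoblast markers (4 of 8 tested), endothelial markers (2 of 4) and macrophage markers (4 of 4) had differences of 0.08, 0.07 and 0.08, with 0 genes called. The part of any of these cells in the collagen changes was not tested.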

How the data were processed

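The authors deposited 1 value for each probe set on each array, taken here as intensity on a linear scale from the values themselves. The software behind them and any scaling before deposit are not given in the sources used, and the labels' text describes only the cultures. Values below 0 were set to 0, 10.9, the overall 10th percentile, was added as offset, and log2 values were quantile normalized. Fold changes on this scale understate those of dim genes. After dropping 64 control probe sets, the 13575 above the 40th percentile of mean signal (log2 6.61) were tested with limma 3.58.1 in R 4.3.3 (lmFit, eBayes with an intensity trend, Benjamini-Hochberg, threshold 0.05). Each gene was read through its brightest tested probe set with 1 symbol in the platform annotation of 2016, and 20351 of 20380 such probe sets were found by gene number in RefSeq. The number of arrays limits precision. The letters A to H do not pair arrays.

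Every member is named, and per-array values are given for called members and for collagen types I, III, IV, V and VI. Members, lists and classes were chosen with earlier results of these data known, and the pairs after the member values were seen. Alternatives were other scalings, offsets, filters, moderation, array weights, averaging of probe sets, dropping each array in turn and a 2-fold minimum. On simulated data with 13575 probe sets limma recovered 28.1% of changes of 0.5, 79.7% of changes of 1 and 96.8% of changes of 2 (log2), with 8 of 137 calls false. Noise there was independent between probe sets. Only 64, 64 and 62 tested probe sets were changed by these sizes, whereas 11.2% of tested genes were called in the data. Recovery in the data may therefore differ. Figures were drawn with matplotlib 3.10.9.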

Additional observations from a re-analysis of the deposited data

Results flagged for a closer look

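In the control arrays 2 single values stood far from the other 3 of their group, out of 70 groups of 4 arrays checked. Chance alone gives about 1 such group in 20, so 2 of 70 is no more than chance alone gives. Serpinh1 was low in control B, at a log2 signal of 11.31 where the other controls ran from 11.72 to 11.76, and without control B its change was 0.11 (adjusted p = 0.541). Control B is also the array with the high Gapdh 3' to 5' ratio (1.40). Col14a1 was high in control C, at 7.62 where the other controls ran from 7.05 to 7.12.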

How the results depend on the processing

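The counts of lower members held within 1.5 times under other scalings, offsets, filters and moderation, apart from these. Among other collagens 2 were lower in unscaled values, where Col6a1 joined Col8a1. Members called higher numbered 1 without the brightness filter (Col22a1) and 1 on averaging each gene's probe sets (Serpinh1). Of all genes in those 2 fits, 2.52% and 4.65% were called higher. With at least a 2-fold change in the brightest probe set 7 members were lower, of which 0 were other collagens and 1 an enzyme. Leaving out 1 array gave 13 to 14 members lower and 0 to 0 higher, 4 to 5 fibrillar, 3 to 3 of the basement membrane group, 1 to 1 other and 5 to 6 enzymes. Type IV chains alone gave 2 of 5 lower. Of 654 values of members under alternatives, 617 kept direction and call, 8 lost the call (all Loxl3), 6 gained one, 23 changed sign without a call, and 0 reversed a call. Of the 23 tested collagen-handling genes outside the members, those called higher (1 as reported) numbered 0 in unscaled values, with median centring, with 75th percentile centring and without an intensity trend, 2 with array weights, and 0 to 2 when 1 array was left out. Kdelr2 was at -0.041 in unscaled values. Col22a1 was chosen after its values were seen. The causes were not tested. No paired analysis was possible because the replicate letters differ between the groups.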

Other observations

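Without the brightness filter 2 of the 27 untested member probe sets were called, both higher in starved arrays, and both were picked out after their values were seen. In the same fit 2.52% of all 12393 genes were called higher and 4.26% lower. Col22a1, a collagen known from the muscle-tendon junction, rose by 0.89 ± 0.23 on the log2 scale (adjusted p = 0.0470). A second Col22a1 probe set gave 0.10 ± 0.23 (adjusted p = 0.880). The dimmer probe set of Col14a1 rose by 1.48 ± 0.31 (adjusted p = 0.0196), beside 0.49 ± 0.22 for the brighter one. Mean log2 signals of the called probe sets were 5.76 and 5.95, below the limit of 6.61, and the table gives no detection calls.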
